A study of Saccharomyces cerevisiae with 16 samples.

Results

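The genes described here are the 43 genes of budding yeast (Saccharomyces cerevisiae) that encode enzymes of glycolysis, ethanol formation, ethanol and acetate use, the glyoxylate cycle with gluconeogenesis, and the pentose phosphate pathway. They were taken by gene symbol from a list of these pathways, chosen with earlier results of these data known. All 43 were on the array, among 5315 genes measured. They fall into 17 genes of glycolysis, 5 of ethanol formation and the alcohol dehydrogenases that go with it, 7 of ethanol and acetate use, 5 of the glyoxylate cycle and gluconeogenesis, and 9 of the pentose phosphate pathway.

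Glycolysis splits glucose into pyruvate, and in yeast given glucose most of that pyruvate is turned into ethanol. When glucose runs out, ethanol is oxidised back to acetaldehyde and acetate, acetate is joined to coenzyme A, and the glyoxylate cycle and gluconeogenesis rebuild sugar from it. Many genes of those later steps are repressed while glucose is present, but not all, since ACS2 is needed on glucose. The pentose phosphate pathway branches off glucose 6-phosphate, and its oxidative steps yield NADPH. Many steps have a pair of isozymes, one used on glucose and another that is expressed as glucose falls.

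The study measured newly made RNA in 2 strains at 4 times on 16 two-colour arrays, with 2 independent cultures in each of the 8 groups. In the Mot1-aa strain (Mot1-FRB-yEGFP-3V5), rapamycin ties the FRB-tagged Mot1 to a ribosomal protein carrying FKBP12, which takes it out of the nucleus. Mot1 is an ATPase that strips the TATA-binding protein from DNA. The WT-aa strain has the same background with no FRB tag. Both strains are of the alpha mating type with tor1-1, a deletion of fpr1 and RPL13A-FKBP12, with MET15 and with the markers his3-1, leu2, lys2 and ura3. Cells of every group grew in synthetic complete medium with 2% glucose, so the glucose-repressed genes were measured under repression. The groups are WT-aa and Mot1-aa before rapamycin (0 min) and 10, 20 and 30 min after 7.5 µM rapamycin. The uracil analogue 4-thiouracil (5 mM) was present for the last 6 min in all of them, and RNA that had taken it up was captured and hybridised against a pool of such RNA from WT-aa without rapamycin. Rapamycin reached both strains, while the loss of Mot1 protein from the nucleus is not measured by these arrays.

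Each value is the log2 ratio of a gene's signal in the sample to that of the same gene in the reference pool, relative to the typical gene of that array. A depletion effect is how far a gene moved from its own 0 min level in Mot1-aa, less how far it moved in WT-aa. All tests are by limma with p-values adjusted over all genes, a gene is called at an adjusted p under 0.05, SE is the standard error of a change, and n is 2 cultures per group. Sample signal lay 11.7 times over background on the Mot1-aa 0 min array of culture 1 and 22.4 to 32.3 times on the others. Scaling on the external control spots, which lay only 1.15 to 1.50 times over background, moved the median depletion effect of all genes to 0.54, 0.54 and 0.27 at 10, 20 and 30 min. The members' median was then 0.70, 0.95 and 0.81, and none of their depletion effects passed. Control spots this near background cannot show whether the changes also hold in absolute terms. Each array was scaled on its gene spots, so the changes given here are relative to other genes. In a culture, fewer cells that make a transcript and less of it per cell cannot be told apart.

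The range of the scanner limited the brightest members. Of 64 spot values per gene, over both channels, both spots and 16 arrays, 40 reached 60000 units or more for TDH3, 35 for TDH2, 30 for TDH1, 21 for ENO2 and 18 for PDC1, which is close to the scanner's maximum. FBA1 had 4 such values, ENO1 and ADH1 had 2 each, and GPM1 had 1. A ratio between values near the maximum is compressed, so small differences of TDH1, TDH2, TDH3, ENO2 and PDC1 do not show small changes. At the other end, FBP1 was above the 99th percentile of negative spots on 5 of 16 arrays and MLS1 on 12, while the other 41 members were above it on all 16. The 3 TDH genes are near copies of each other, as are ENO1 and ENO2, and ADH1 and ADH2. Probe sequences were not used here, and signal shared between such copies was not tested. The same holds for the other pairs of isozymes, such as GND1 and GND2.

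**Figure D1:**
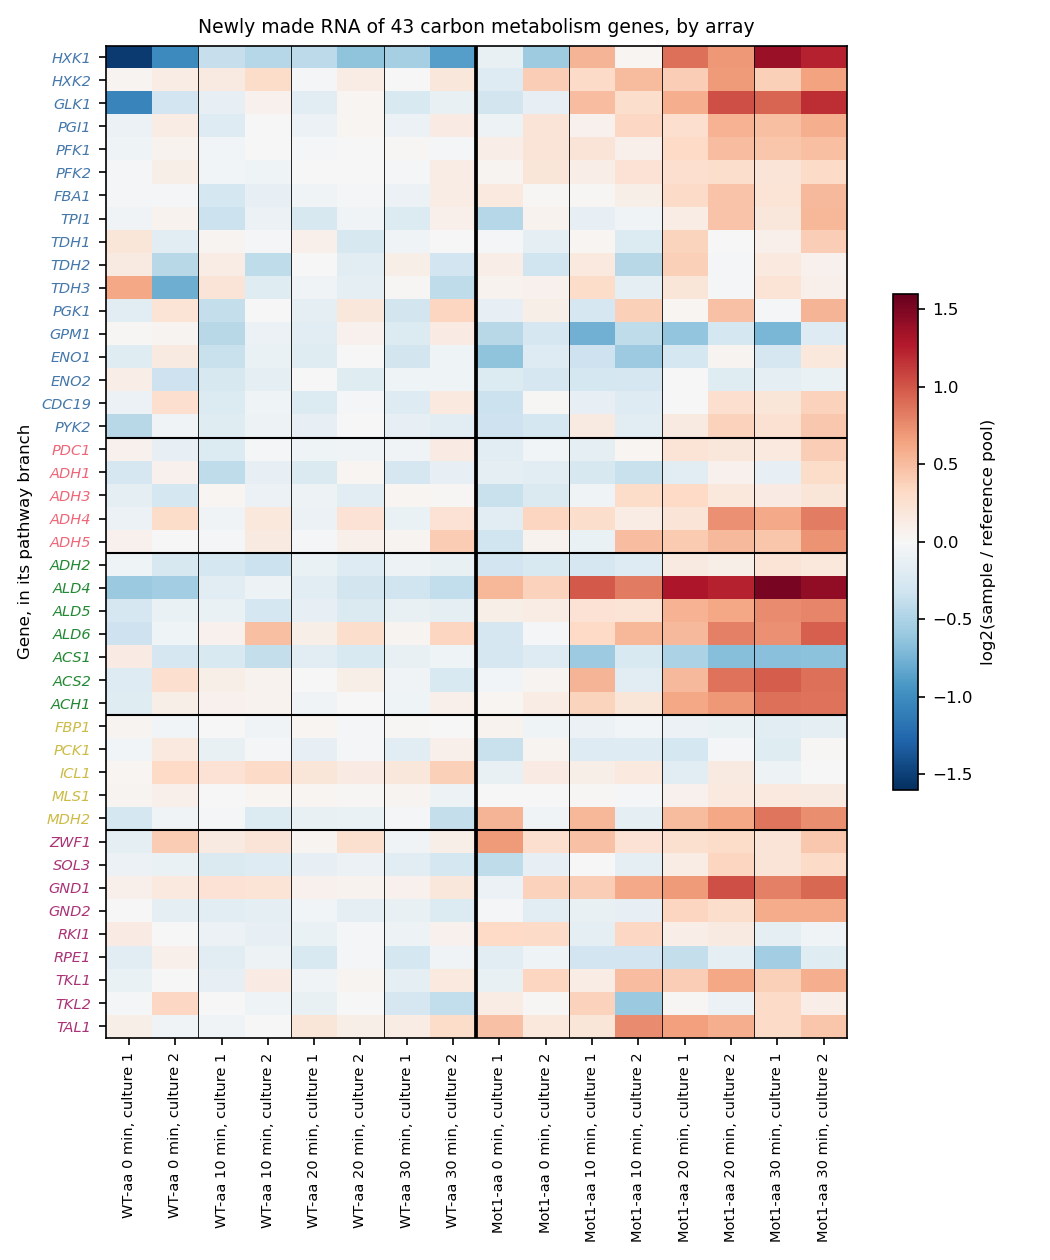
Log2 ratio of sample to reference pool (colour scale) for the 43 genes (rows, grouped by branch) on the 16 arrays (columns, 2 cultures for each strain and time). HXK1, GLK1, ALD4, ALD6, ACS2, ACH1 and GND1 turn red in Mot1-aa by 30 min, ACS1 turns blue, and ALD4 is already red in Mot1-aa at 0 min.

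At 30 min the depletion effect on newly made RNA, relative to other genes, was called higher for 15 of the 43 genes, and none passed as lower. The called genes were HXK1, GLK1, PGI1, TPI1 and CDC19 of glycolysis, the alcohol dehydrogenase ADH4, all genes of ethanol and acetate use except ACS1, and SOL3, GND1 and GND2 of the pentose phosphate pathway. Their depletion effects ran from 0.41 for ADH2 to 1.11 for ACS2. Over all genes 13.6% were called higher and 7.51% lower at 30 min, against 34.9% and 0% of the members. The members were chosen with earlier results of these data known, so these shares cannot test for an excess among them. The members' median effect was 0.37, with 35 positive and 8 negative, and that of all genes was 0.01. The count was 9 without the array of culture 2 at 30 min of either strain, and 24 without either Mot1-aa array of 10 min. It was 7 without the term for dye orientation, which is also the culture number.

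At 20 min 10 members were called higher and 0 lower, where 7.06% of all genes were called higher and 1.03% lower. They were PGI1, TPI1, ADH2, ALD4, ALD5, ALD6, ACH1, SOL3, GND1 and GND2, and the members' median was 0.36. The largest effect was that of GND1, at 0.78 (SE 0.16, adjusted p = 0.0151). Each of these calls was lost with at least 1 array left out, and the count was 0 without the culture 2 array of 20 min of either strain and 0 without the dye term. Without either Mot1-aa array of 10 min it was 17. At 10 min 0 members were called in either direction by limma, and over all genes likewise 0% were higher and 0% lower. At an unadjusted p under 0.05 there were 3 members at 10 min, and 225 of all genes.

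**Figure D2:**
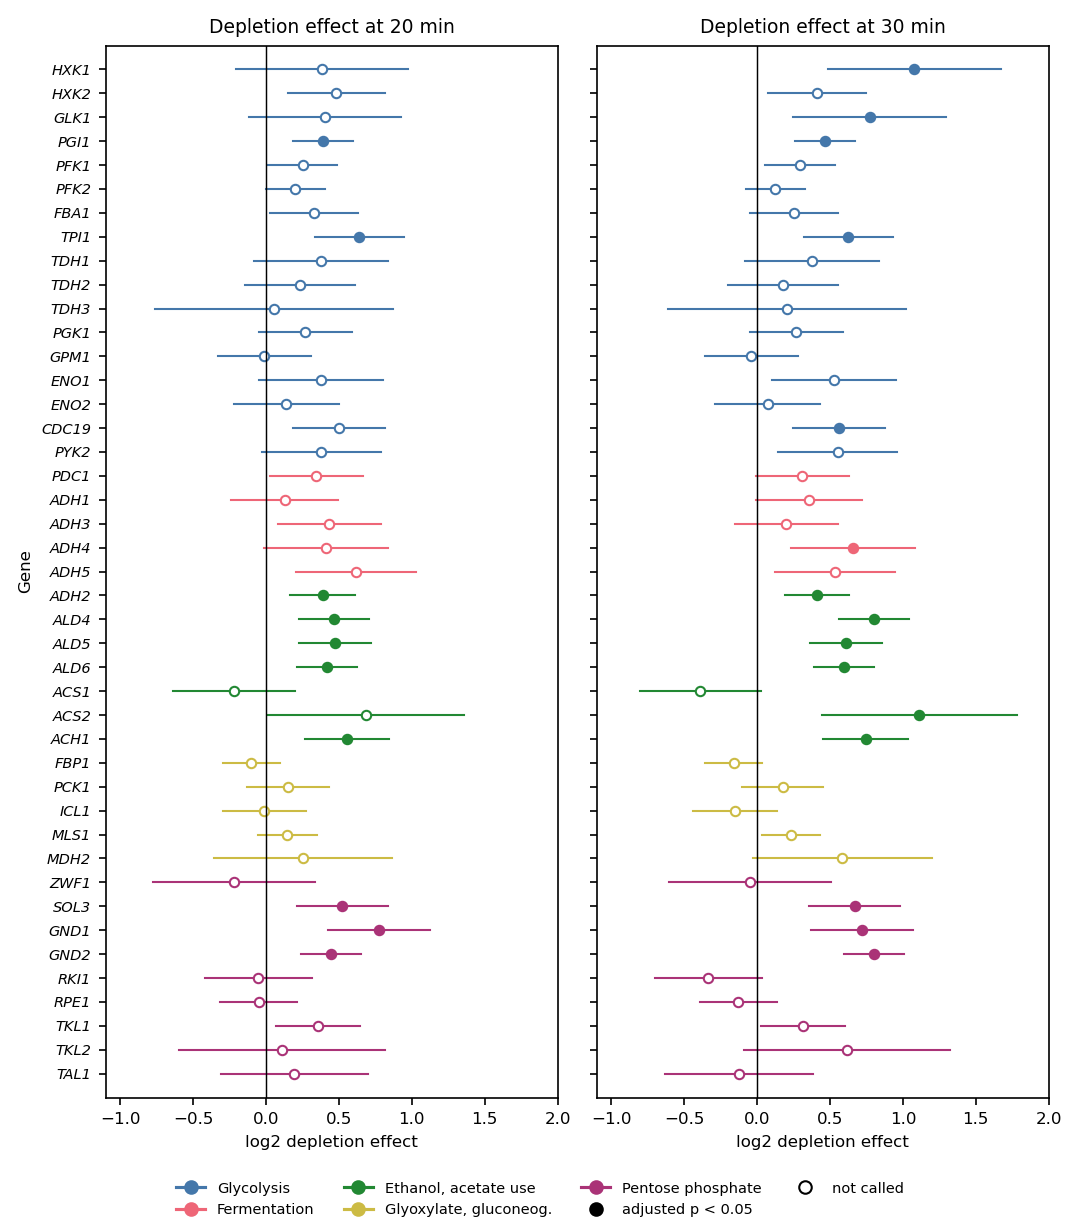
Log2 depletion effect of each gene at 20 min (left) and 30 min (right), with 95% intervals from limma; colours mark the branches, and filled points passed at an adjusted p under 0.05. At 30 min 15 points are filled and all lie above 0, 6 of them among the 7 genes of ethanol and acetate use and none among the 5 of the glyoxylate cycle and gluconeogenesis. Over all genes 13.6% were called higher and 7.51% lower at 30 min.

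Glycolysis begins with the sugar kinases, and of these HXK1 and GLK1 were called at 30 min and HXK2 was not. HXK1 (YFR053C) encodes hexokinase 1, which gains in use when glucose is scarce. Its log2 ratio in cultures 1 and 2 of WT-aa was -1.53 and -1.02 at 0 min, -0.37 and -0.45 at 10 min, -0.42 and -0.64 at 20 min, and -0.53 and -0.88 at 30 min. In Mot1-aa it was -0.12 and -0.57 at 0 min, 0.55 and 0.04 at 10 min, 0.88 and 0.70 at 20 min, and 1.38 and 1.23 at 30 min. Every Mot1-aa array of 10 min or later lay above every WT-aa array, and both WT-aa arrays of 0 min lay below all others of that strain. The strains already differed by 0.94 at 0 min. The depletion effect was -0.23 at 10 min and 0.38 at 20 min, neither of them called. The depletion effect was 1.08 at 30 min (SE 0.27, 2.11-fold, adjusted p = 0.018 by limma), with 0.50 in culture 1 and 1.66 in culture 2. It was 0.68 without WT-aa 0 min culture 2, and the call was lost when culture 2 was left out at 0 min of Mot1-aa or at 30 min of WT-aa, or with either Mot1-aa array of 30 min left out.

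GLK1 (YCL040W), the glucokinase gene, followed the same course. In WT-aa its log2 ratio was -1.05 and -0.30 at 0 min, -0.13 and 0.07 at 10 min, -0.16 and 0.03 at 20 min, and -0.24 and -0.12 at 30 min. The Mot1-aa arrays stood at -0.29 and -0.13 at 0 min, 0.49 and 0.29 at 10 min, 0.58 and 1.03 at 20 min, and 0.94 and 1.18 at 30 min. At 0 min the nearest arrays of the strains were all but level, and from 10 min on the strains were apart. For GLK1 the difference between the strains was already 0.47 at 0 min. The depletion effect was -0.05 at 10 min and 0.40 at 20 min, neither of them called. Its effect at 30 min was 0.77 (SE 0.24, 1.71-fold, adjusted p = 0.0419), with 0.41 and 1.13 in cultures 1 and 2, and it passed with only 3 of the 16 arrays left out in turn. Without WT-aa 0 min culture 2 it was 0.48 (adjusted p = 0.138), without the dye term the adjusted p was 0.139, and with the authors' deposited log2 ratios it was 0.0803.

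HXK2 (YGL253W) encodes the hexokinase used on glucose. In WT-aa its log2 ratio was 0.05 and 0.12 at 0 min, 0.14 and 0.29 at 10 min, -0.02 and 0.12 at 20 min, and 0.01 and 0.18 at 30 min. Mot1-aa gave -0.21 and 0.39 at 0 min, 0.31 and 0.51 at 10 min, 0.39 and 0.68 at 20 min, and 0.38 and 0.65 at 30 min. Both Mot1-aa cultures lay above both WT-aa cultures from 10 min on, with an uncalled depletion effect of 0.19 at 10 min. The effect of 0.41 at 30 min (SE 0.15, adjusted p = 0.0779) was not called.

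Further down the pathway, PGI1 (YBR196C), phosphoglucose isomerase, had an effect of 0.46 at 30 min (SE 0.09, adjusted p = 0.00681), and TPI1 (YDR050C), triose phosphate isomerase, one of 0.62 (SE 0.14, adjusted p = 0.0105). Both passed with any 1 array left out, and both were lost without the dye term (adjusted p = 0.192 and 0.17). For PGI1 the authors' deposited log2 ratios gave 0.06 (adjusted p = 0.867). CDC19 (YAL038W), the main pyruvate kinase, had an effect of 0.56 (SE 0.14, adjusted p = 0.0201), which was lost without the dye term (adjusted p = 0.175) and with any of 5 arrays left out: culture 2 of WT-aa at 0 min, culture 1 of WT-aa at 30 min, culture 1 of Mot1-aa at 0 min, and both of Mot1-aa at 30 min.

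The other glycolytic genes did not pass at 30 min. The phosphofructokinase subunits PFK1 and PFK2 stood at 0.29 and 0.13, the aldolase FBA1 at 0.25, the phosphoglycerate kinase PGK1 at 0.27 and the phosphoglycerate mutase GPM1 at -0.04. The enolases ENO1 and ENO2 stood at 0.53 and 0.07, the minor pyruvate kinase PYK2 at 0.55 (adjusted p = 0.0561), and the glyceraldehyde phosphate dehydrogenases TDH1, TDH2 and TDH3 at 0.37, 0.18 and 0.20, with the limit from the scanner's maximum that applies to TDH1 to TDH3 and ENO2. GPM1 was the only glycolytic gene with a negative effect at 30 min. With the authors' deposited log2 ratios TDH1 was called at 0.77 (adjusted p = 0.0234), and which step of their processing differs was not tested. The median of the 17 was 0.37, with 5 called higher (29.4%), where 13.6% of all genes were called higher.

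Of the 5 genes of ethanol formation, 1 was called at 30 min (20%), where 13.6% of all genes were called higher and 7.51% lower. ADH4 (YGL256W), an alcohol dehydrogenase, had an effect of 0.66 (SE 0.19, adjusted p = 0.0352). It passed with 5 of the 16 arrays left out in turn, and missed with median centring in place of loess (adjusted p = 0.0689) and in the model with no dye term (adjusted p = 0.218). Pyruvate decarboxylase PDC1, with spot values at the scanner's maximum, stood at 0.31, the ethanol-forming ADH1 at 0.36, the mitochondrial ADH3 at 0.20 and ADH5 at 0.53 (adjusted p = 0.0663). The authors' deposited log2 ratios gave 0.64 for PDC1 (adjusted p = 0.00516) and 0.87 for ADH1 (adjusted p = 0.0205), and median centring gave 0.52 for ADH1 (adjusted p = 0.045). All 5 effects were positive, with a median of 0.36.

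Ethanol and acetate use was the branch with the largest share of calls, 6 of 7 at 30 min (85.7%) and 5 of 7 at 20 min (71.4%). Over all genes 13.6% and 7.06% were called higher at these times. The lists were chosen with earlier results of these data known, so these shares cannot test for an excess in this branch. ALD4 (YOR374W), the mitochondrial acetaldehyde dehydrogenase, was at -0.60 and -0.55 in WT-aa at 0 min, -0.18 and -0.09 at 10 min, -0.16 and -0.30 at 20 min, and -0.32 and -0.39 at 30 min. The tagged strain gave 0.54 and 0.37 at 0 min, 0.99 and 0.83 at 10 min, 1.29 and 1.23 at 20 min, and 1.52 and 1.42 at 30 min. Every Mot1-aa array, those of 0 min included, lay above every WT-aa array. The depletion effect of 0.80 at 30 min (SE 0.11, 1.74-fold, adjusted p = 8.25e-04) came on top of a difference between the strains at 0 min. It was 0.71 in culture 1 and 0.89 in culture 2, and passed with any 1 array left out.

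ALD6 (YPL061W) encodes the cytosolic acetaldehyde dehydrogenase. In WT-aa its log2 ratio was -0.34 and -0.07 at 0 min, 0.07 and 0.48 at 10 min, 0.10 and 0.28 at 20 min, and 0.05 and 0.34 at 30 min. In Mot1-aa it was -0.27 and -0.03 at 0 min, 0.32 and 0.53 at 10 min, 0.52 and 0.81 at 20 min, and 0.73 and 0.95 at 30 min. The strains overlapped at 0 and 10 min and were apart at 20 and 30 min. The effect at 30 min was 0.59 (SE 0.09, adjusted p = 0.00196), with 0.62 and 0.57 in cultures 1 and 2. It passed with any 1 array left out and was lost without the dye term (adjusted p = 0.157).

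ALD5 (YER073W), another mitochondrial aldehyde dehydrogenase, was at -0.27 and -0.11 in WT-aa at 0 min, -0.11 and -0.28 at 10 min, -0.13 and -0.24 at 20 min, and -0.12 and -0.15 at 30 min. The Mot1-aa cultures gave 0.09 and 0.12, 0.23 and 0.22, 0.55 and 0.62, and 0.76 and 0.78 at the same times. The strains were apart at every time, and the distance grew from 20 min on. The effect at 30 min was 0.61 (SE 0.11, adjusted p = 0.00446) and passed with any 1 array left out.

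The acetyl-coenzyme A synthetases were compared next. ACS2 (YLR153C), the enzyme needed on glucose, was at -0.20 and 0.27 in WT-aa at 0 min, 0.10 and 0.06 at 10 min, -0.01 and 0.10 at 20 min, and -0.06 and -0.24 at 30 min. Mot1-aa stood at -0.04 and 0.04 at 0 min, 0.54 and -0.17 at 10 min, 0.52 and 0.87 at 20 min, and 0.97 and 0.88 at 30 min. The strains overlapped at 0 and 10 min and were apart at 20 and 30 min. The effect at 30 min was 1.11 (SE 0.30, 2.16-fold, adjusted p = 0.0268), the largest of the 43, with 0.87 and 1.35 in cultures 1 and 2. It passed with 9 of the 16 arrays left out in turn, and was lost without WT-aa 0 min culture 2 or any array of Mot1-aa at 0 min or of either strain at 30 min.

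ACS1 (YAL054C) encodes the synthetase that is repressed on glucose. In WT-aa its log2 ratio was 0.13 and -0.26 at 0 min, -0.25 and -0.38 at 10 min, -0.16 and -0.24 at 20 min, and -0.12 and -0.07 at 30 min. The Mot1-aa arrays gave -0.27 and -0.21 at 0 min, -0.58 and -0.25 at 10 min, -0.51 and -0.69 at 20 min, and -0.67 and -0.65 at 30 min. Both Mot1-aa cultures lay below both WT-aa cultures at 20 and 30 min. The depletion effect of -0.39 at 30 min was the lowest of the 43 and was not called (SE 0.19, adjusted p = 0.167). Within Mot1-aa ACS1 fell by 0.42 from 0 to 30 min (SE 0.13, adjusted p = 0.027). That call was lost with any of the Mot1-aa arrays of 0 and 30 min left out, with the authors' deposited log2 ratios (-0.28, adjusted p = 0.0544) and with the external control spots (-0.08).

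ACH1 (YBL015W), a mitochondrial enzyme that passes coenzyme A to acetate, was at -0.20 and 0.10 in WT-aa at 0 min, 0.07 and 0.06 at 10 min, -0.06 and 0.01 at 20 min, and -0.07 and 0.08 at 30 min. In Mot1-aa it was at 0.04 and 0.11 at 0 min, 0.35 and 0.19 at 10 min, 0.62 and 0.69 at 20 min, and 0.88 and 0.87 at 30 min. The strains were apart from 10 min on, with an uncalled depletion effect of 0.08 at 10 min. The effect at 30 min was 0.74 (SE 0.13, 1.67-fold, adjusted p = 0.00344), with 0.71 and 0.78 in cultures 1 and 2, and passed with any 1 array left out. ADH2 (YMR303C), the glucose-repressed dehydrogenase that oxidises ethanol, had an effect of 0.41 (SE 0.10, adjusted p = 0.0165). It passed with 10 of the 16 arrays left out in turn and missed with median centring (adjusted p = 0.0731) and in the model with no dye term (adjusted p = 0.0635). The median sample signal of ADH2 was 9661 units, and that of its near copy ADH1 was 32100. Signal of ADH1 at the ADH2 probe was not tested. The median effect of the 7 genes of this branch was 0.61.

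Of the 5 genes of the glyoxylate cycle and gluconeogenesis, 0 were called by limma as a depletion effect at any time, and MLS1 at 30 min was the only one at an unadjusted p under 0.05. Over all genes 13.6% were called higher and 7.51% lower at 30 min. A count of 0 among 5 genes cannot be told apart from these shares. At 30 min the malate dehydrogenase MDH2 stood at 0.58 (SE 0.28, adjusted p = 0.158), with 0.04 in culture 1 and 1.13 in culture 2. The isocitrate lyase ICL1 stood at -0.15 and the phosphoenolpyruvate carboxykinase PCK1 at 0.18. Malate synthase MLS1 stood at 0.23 and fructose bisphosphatase FBP1 at -0.16, and both lay near the background, which leaves little room to see a change. With no offset in the background correction, a setting chosen after seeing the data, MLS1 was called at 0.69 (adjusted p = 0.0223). The median of the 5 was 0.18 and turned to -0.02 with median centring.

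In the pentose phosphate pathway the calls were genes of the oxidative branch. GND2 (YGR256W), the minor 6-phosphogluconate dehydrogenase, was at -0.01 and -0.15 in WT-aa at 0 min, -0.17 and -0.14 at 10 min, -0.04 and -0.15 at 20 min, and -0.12 and -0.22 at 30 min. Mot1-aa cultures stood at -0.03 and -0.19 at 0 min, -0.11 and -0.13 at 10 min, 0.35 and 0.28 at 20 min, and 0.60 and 0.60 at 30 min. The strains did not differ by more than the spread between cultures at 0 min, and were apart at 20 and 30 min. The effect at 30 min was 0.80 (SE 0.09, 1.74-fold, adjusted p = 4.13e-04), the smallest adjusted p of the 43, with 0.74 and 0.86 in cultures 1 and 2. Its sample signal lay 2.64 to 6.41 times over background, and the call held with any 1 array left out. The median sample signal was 186 units for GND2 and 10820 for GND1, and signal shared between these isozymes was not tested.

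GND1 (YHR183W), the major 6-phosphogluconate dehydrogenase, had an effect of 0.72 at 30 min (SE 0.16, adjusted p = 0.0102), and SOL3 (YHR163W), a 6-phosphogluconolactonase, one of 0.67 (SE 0.14, adjusted p = 0.0086). GND1 was lost when culture 2 of WT-aa at 30 min was left out and in the model with no dye term (adjusted p = 0.0563), while SOL3 passed with any 1 array left out. ZWF1, glucose 6-phosphate dehydrogenase and the entry to this branch, stood at -0.05 (SE 0.25, adjusted p = 0.9), with an interval from -0.61 to 0.51. Of the remaining genes of the pathway, the ribose phosphate isomerase RKI1 stood at -0.34 and the epimerase RPE1 at -0.13. The transaldolase TAL1 stood at -0.13 and the transketolases TKL1 and TKL2 at 0.31 and 0.62. None of these genes was called. The median of the 9 was 0.31, with 3 called higher (33.3%), where 13.6% of all genes were called higher.

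Before rapamycin, Mot1-aa made more RNA than WT-aa from 2 members and less from 0, where 1.84% of all genes were higher and 0.847% lower. ALD4 was higher by 1.03 (SE 0.08, 2.04-fold, adjusted p = 8.04e-05), and that call held with any 1 array left out. HXK1 was higher by 0.94 (SE 0.19, adjusted p = 0.0282), but by 0.54 without WT-aa 0 min culture 1 (adjusted p = 0.109), and it passed with 5 of the 16 arrays left out in turn. The members' median was -0.03. These differences at 0 min enter every depletion effect with the opposite sign. The count was 1 without the dye term and 6 without either Mot1-aa array of 10 min.

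In WT-aa alone, where rapamycin was added but Mot1 carried no tag, 2 members were higher at 10 min, 0 at 20 min and 1 at 30 min, and 0 were lower at any time. Over all genes 0.376%, 0.113% and 0.357% were higher and 0.0376%, 0% and 0.0376% lower at these times. ALD6 rose by 0.48 at 10 min (SE 0.07, adjusted p = 0.00868) and by 0.40 at 30 min (SE 0.07, adjusted p = 0.0279), and stood at 0.40 at 20 min (adjusted p = 0.053). ALD4 rose by 0.44 at 10 min (SE 0.08, adjusted p = 0.0423). HXK1 and GLK1 stood at 0.87 and 0.65 at 10 min, larger than these, without a call (adjusted p = 0.106 and 0.207), and the spread between their 0 min arrays was wide. At an unadjusted p under 0.05 there were 4 members at 20 min. ALD4 at 10 min was called with 2 of the 16 arrays left out in turn, ALD6 at 10 min with 13 and at 30 min with 4, and median centring or a model with no dye term ended each of these calls.

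In Mot1-aa alone, 2 members were higher at 10 min, 21 at 20 min and 26 at 30 min, and 0, 0 and 3 were lower. Over all genes 3.07%, 16.4% and 22.9% were higher and 0.395%, 7.47% and 19% lower. The first were ALD6, by 0.58 (SE 0.07, adjusted p = 0.00104), and ALD4, by 0.46 (SE 0.08, adjusted p = 0.0095), the genes that also rose at 10 min in WT-aa. By 30 min HXK1 had risen by 1.65 (SE 0.19, 3.13-fold), GLK1 by 1.27 (SE 0.17), ALD4 by 1.02 (SE 0.08), ALD6 by 0.99 (SE 0.07) and ACS2 by 0.93 (SE 0.21). The genes lower at 30 min were ACS1, RKI1 and RPE1, of which RKI1 fell by 0.41 (SE 0.12, adjusted p = 0.0173) and RPE1 fell by 0.26 (SE 0.08, adjusted p = 0.0317). Without Mot1-aa 30 min culture 1 RPE1 was at -0.16 (adjusted p = 0.277), and its call was also lost without either Mot1-aa array of 0 min and without the dye term (adjusted p = 0.211). That of RKI1 was lost without Mot1-aa 0 min culture 1 or either Mot1-aa array of 30 min. With scaling on the external control spots RKI1 stood at 6e-04 and RPE1 at 0.15, neither called (adjusted p = 0.998 and 0.68 by limma). Control spots this near background cannot show their direction in absolute terms. The count at 10 min was 8 and 7 without cultures 1 and 2 of that time, 4 without either WT-aa array of 0 min, and 0 with array weights. The count at 20 min was 11 without Mot1-aa 0 min culture 1 or 20 min culture 2, and that of 29 at 30 min was 18 without Mot1-aa 0 min culture 1, the array with the weakest signal.

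**Figure D3:**
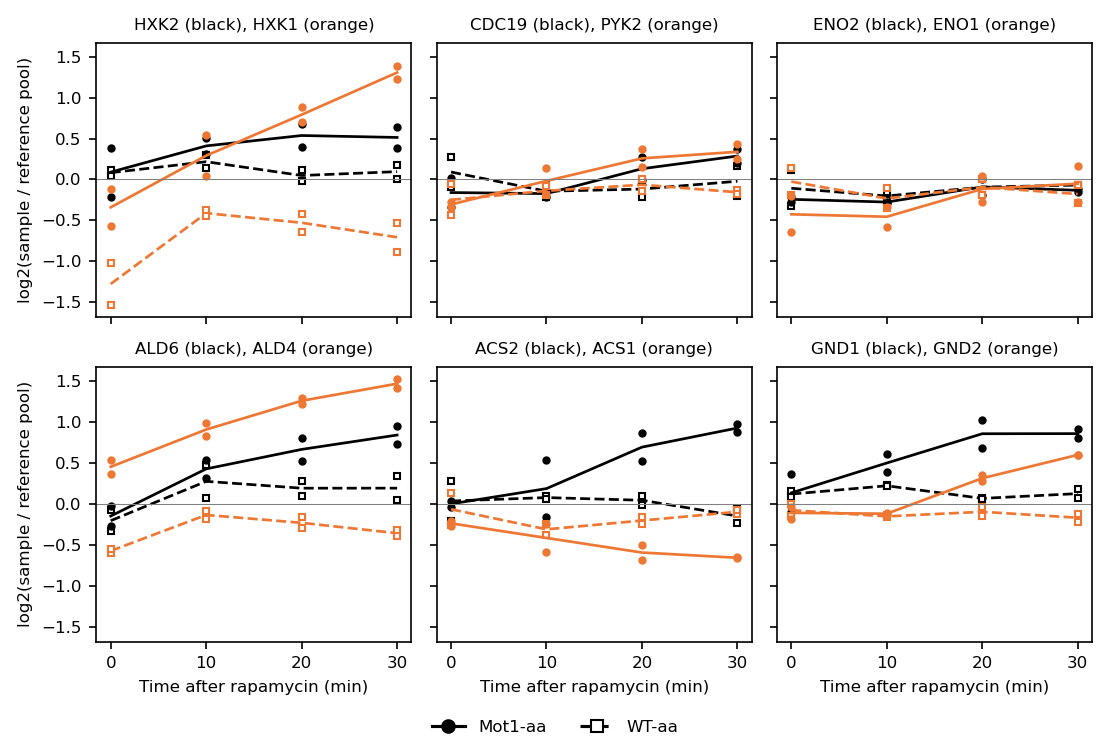
Log2 ratio of sample to reference pool against minutes after rapamycin for 6 pairs of isozymes, in Mot1-aa (solid lines, circles) and WT-aa (dashed lines, squares); points are single cultures and lines join the means of 2. ACS1 and ACS2 separate in Mot1-aa, to -0.65 and 0.88 in culture 2 at 30 min, while GND1 and GND2 both rise.

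The 14 pairs of genes for the same step were then compared directly, with the difference of their log2 ratios on each array fitted as a further row beside all genes and p-values adjusted over all 5329 rows. The depletion effect at 30 min differed in 1 of the 14 pairs. That of ACS1 was lower than that of ACS2 by a difference of -1.50 (SE 0.46, 95% interval -2.53 to -0.47, adjusted p = 0.0437 by limma). It passed with 3 of the 16 arrays left out in turn and was lost without the dye term (adjusted p = 0.057) and with the authors' deposited log2 ratios (-1.01, adjusted p = 0.0644). Without WT-aa 0 min culture 1, 3 pairs were called. As depletion effects at 10 and 20 min 0 pairs were called by limma, and 0 had an unadjusted p under 0.05.

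The remaining pairs were not shown to differ, and their intervals say how much they could. HXK1 exceeded HXK2 by 0.67 (interval -0.12 to 1.45) and GLK1 exceeded HXK2 by 0.36 (-0.29 to 1.01). PYK2 minus CDC19 was -0.01 (-0.34 to 0.33), GND2 minus GND1 was 0.08 (-0.32 to 0.49) and ADH2 minus ADH1 was 0.06 (-0.42 to 0.53). For these isozymes a difference in either direction of the size of the interval's ends was not excluded. Signal shared between the genes of a pair was not tested. ALD4 minus ALD6 was 0.21 (0.01 to 0.40), which did not pass after adjustment (adjusted p = 0.122). ENO1 minus ENO2 was 0.45 (-0.12 to 1.03) and TDH1 minus TDH3 was 0.17 (-0.61 to 0.95), both with a gene near the scanner's maximum.

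Pairs also differed before rapamycin and within Mot1-aa. At 0 min the difference between the strains was larger for ALD4 than for ALD6 by 0.97 (SE 0.06, adjusted p = 3.69e-05), and for ALD5 against ALD4 it was -0.73 (SE 0.10, adjusted p = 0.00271). From 0 to 30 min in Mot1-aa, HXK1 rose more than HXK2 by 1.22 (SE 0.25, adjusted p = 0.00291) and GLK1 more than HXK2 by 0.84 (SE 0.21, adjusted p = 0.00824). Over the same time ALD5 minus ALD4 was -0.35 (SE 0.10, adjusted p = 0.0166) and ACS1 minus ACS2 was -1.35 (SE 0.33, adjusted p = 0.00779). These 4 were the pairs called in Mot1-aa at 30 min. At 20 min 2 were called by limma, ALD5 minus ALD4 at -0.33 (adjusted p = 0.0361) and ACS1 minus ACS2 at -1.05 (adjusted p = 0.0405). At 20 min the first was lost without the dye term, and the second with the authors' deposited log2 ratios. At 10 min 0 were called. Within WT-aa 0 pairs were called by limma at any time, with 4, 4 and 3 at an unadjusted p under 0.05 at 10, 20 and 30 min.

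**Figure D4:**
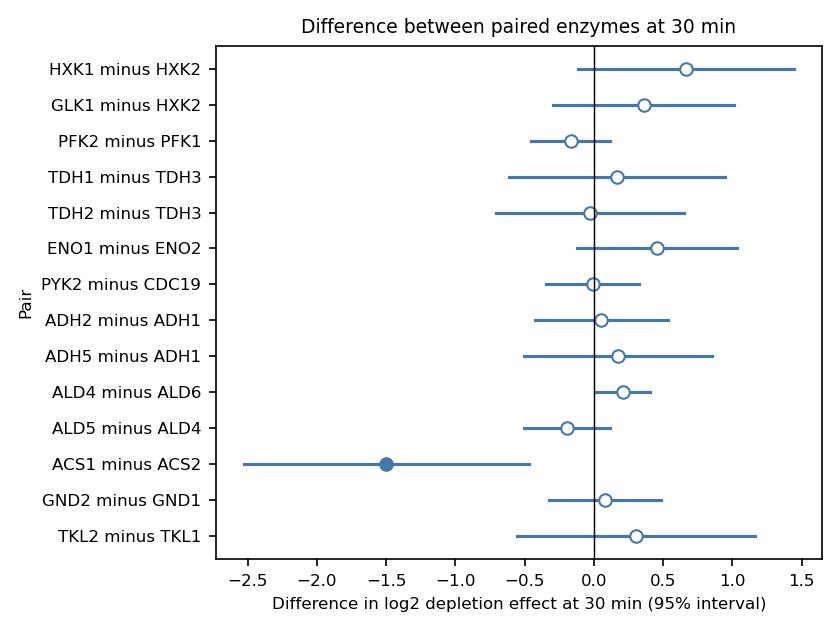
Difference between the log2 depletion effects at 30 min of the first and second gene of 14 pairs, with 95% intervals from limma; the filled point passed at an adjusted p under 0.05. ACS1 minus ACS2, at -1.50, is the only filled point, and the interval of ALD4 minus ALD6 starts just above 0 at 0.01.

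Beyond the 43 enzymes, 33 of 35 other listed pathway genes and 13 listed regulators of carbon metabolism were measured. The 33 include transcription factors (GCR1, GCR2, TYE7, RAP1 and PDC2) besides genes of neighbouring steps. At 30 min 17 of the 33 were called higher and 1 lower, with a median of 0.52, and 2 of the 13 regulators were called higher and 1 lower, with a median of 0.00. As shares these were 51.5% higher and 3.03% lower of the 33, and 15.4% and 7.69% of the 13 regulators. Over all genes they were 13.6% and 7.51%, near the shares of these 13 regulators. GCR1, called higher, and RAP1, called lower, were counted with the 33. These lists too were chosen with earlier results of these data known. The largest rises were those of ALD3, a cytosolic aldehyde dehydrogenase, at 1.40 (SE 0.25), NQM1, a relative of the transaldolase TAL1, at 1.22 (SE 0.15), SOL4, a relative of SOL3, at 1.17 (SE 0.15), and GCR1, the activator of glycolytic genes, at 1.06 (SE 0.18). All 4 passed with any 1 array left out, with adjusted p of 0.00346, 5.52e-04, 5.9e-04 and 0.00292 by limma, and none of the 4 with scaling on the external control spots. Of the members they resemble, TAL1 stood at -0.13 and SOL3 at 0.67.

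The falls were those of CAT8, the activator of glyoxylate and gluconeogenesis genes, and of RAP1, which binds promoters of glycolytic and ribosomal protein genes. In WT-aa CAT8 was at -0.28 and -0.23 at 0 min, 0.02 and 0.09 at 10 min, -0.08 and -0.17 at 20 min, and -0.07 and -0.20 at 30 min. The tagged strain stood at -0.21 and -0.25 at 0 min, -0.01 and -0.30 at 10 min, -0.60 and -0.71 at 20 min, and -0.73 and -0.93 at 30 min. The strains were apart at 20 and 30 min, with Mot1-aa lower. The effect of CAT8 was -0.72 at 30 min (SE 0.13, adjusted p = 0.00336) and passed with any 1 array left out, but stood at -0.47 without a call with the external control spots. RAP1 had an effect of -0.70 (SE 0.18, adjusted p = 0.0202), which passed with 10 of the 16 arrays left out in turn and missed with median centring (adjusted p = 0.0612) and in the model with no dye term (adjusted p = 0.0638).

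Of the 13 listed regulators, those called higher were SIP4 and MIG2, named here after their values were seen. SIP4, an activator of gluconeogenesis genes, had an effect of 0.46 (SE 0.10, adjusted p = 0.00979), opposite in sign to that of CAT8. It passed with any 1 array left out and missed with median centring (0.30, adjusted p = 0.392), without the dye term (adjusted p = 0.135) and with the external control spots (adjusted p = 0.298). MIG2, a repressor of genes on glucose, stood at 0.49 (SE 0.11, adjusted p = 0.00938) and likewise passed with any 1 array left out, but not without the dye term (adjusted p = 0.0582) or with the external control spots (adjusted p = 0.304).

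Of the other regulators fixed for naming, none was called apart from GCR1. ADR1, an activator of ADH2, stood at 0.27 (adjusted p = 0.409), GCR2, the partner of GCR1, at -0.13 (adjusted p = 0.661), and STB5, an activator of pentose phosphate genes, at -0.03 (adjusted p = 0.896).

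**Figure D5:**
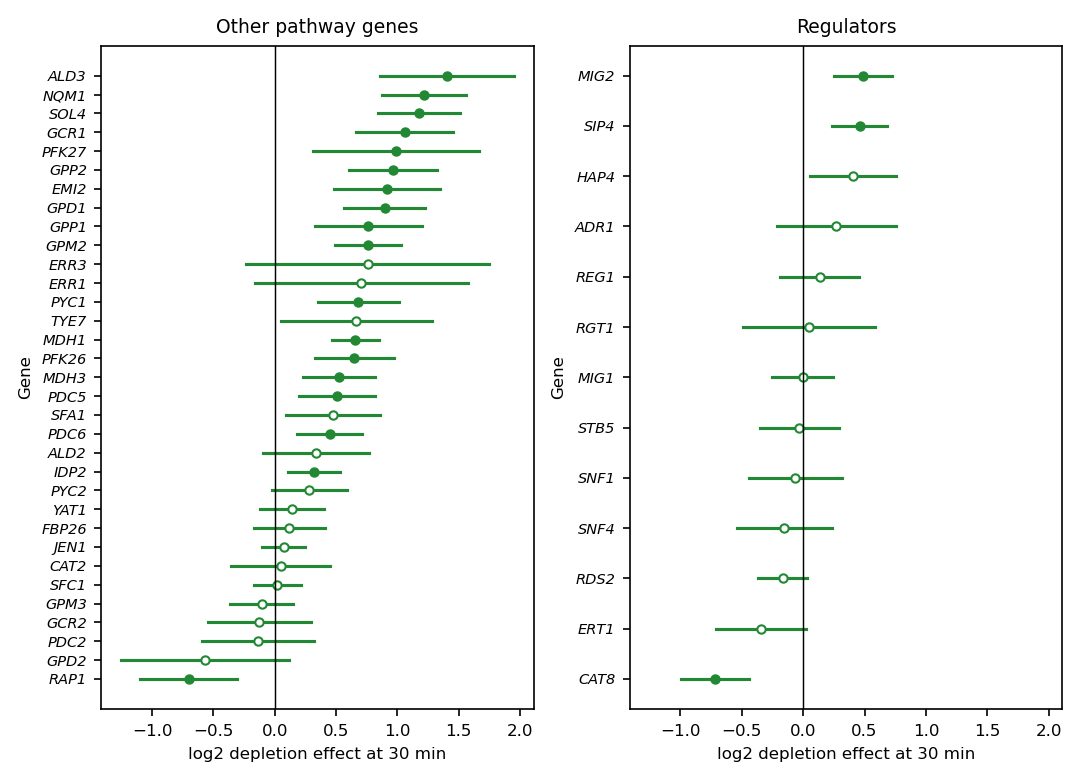
Log2 depletion effect at 30 min of 33 other genes of the pathways (left) and 13 regulators (right), ordered by size, with 95% intervals from limma; filled points passed at an adjusted p under 0.05. ALD3 leads at 1.40, and RAP1 and CAT8 are the only filled points below 0. GCR1 and RAP1 are in the left panel, and the 13 regulators on the right lie on both sides of 0.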

How the data were processed

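The deposited scanner tables hold linear intensity values, per the file headers, with signal and local background of both channels per spot. The authors' deposited series table holds normalized log2 ratios, and their normalization method, the scanner and its software are not given in the sources used here. Ratios were computed from the intensities with limma 3.58.1 in R 4.3.3 (normexp, offset 50, loess within each array over gene spots, mean of duplicate spots) and turned to sample over reference by the labelled dyes. The labels give the sample as Cy3 on the arrays of culture 1 and Cy5 on those of culture 2, while the series' design text names Cy5 for the first hybridization without saying which culture that was. The per-array labels were used, and every sign rests on them. The array held 6388 gene probes, of which 5326 carry a gene name, and each of the 43 members has 1 probe. Genes are given by symbol and locus tag, without coordinates, since no build is named.

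One limma model over all 16 arrays had 8 groups and a dye term, identical to the culture number (7 residual and 3.54 prior degrees of freedom, Benjamini-Hochberg over 5315 genes). The cultures are independent per the labels, but the labels do not say whether the times of a strain share 1 culture. Culture 1 and 2 differed alike in most groups: across genes, r over the 28 pairs of groups was 0.62 in the median (-0.356 to 0.777, 25 over 0.1). Array number and signal over background limit the precision. The members and lists were chosen with earlier results of these data known. All members may be named; values per array are given for the largest called changes at 30 min, for pairs that differed, and for members called in WT-aa or between strains at 0 min; of other genes, the 4 largest rises and falls past the threshold and CAT8, ADR1, GCR1, GCR2 and STB5. The code was tested on simulated data. A planned count of promoter motifs was not run, since promoter sequences were not used here.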

Additional observations from a re-analysis of the deposited data

Results flagged for a closer look

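In 8 results both cultures of Mot1-aa moved one way from 0 min and both cultures of WT-aa the other, and the difference passed by limma. How many of all genes meet this rule was not counted, so the 8 have no share to be set against. At 20 min these were PGI1 with a depletion effect of 0.39 (adjusted p = 0.0312), TPI1 with 0.64 (adjusted p = 0.0198), GND1 with 0.78 (adjusted p = 0.0151) and GND2 with 0.44 (adjusted p = 0.0178). At 30 min they were CDC19 with 0.56 (adjusted p = 0.0201), ADH4 with 0.66 (adjusted p = 0.0352), SOL3 with 0.67 (adjusted p = 0.0086) and GND2 with 0.80 (adjusted p = 4.13e-04). The WT-aa changes behind them were small. At 20 min they were -0.0048 and -0.08 for PGI1, -0.0059 and -0.10 for GND1, and -0.04 and -0.0013 for GND2, in cultures 1 and 2. Values this near 0 do not show a direction. For TPI1 they were -0.19 and -0.11. At 30 min CDC19 changed by 0.54 and 0.36 in Mot1-aa against -0.12 and -0.11 in WT-aa, and SOL3 by 0.61 and 0.44 against -0.09 and -0.19. ADH4 changed by 0.78 and 0.47 against -0.01 and -0.06, and GND2 by 0.63 and 0.79 against -0.11 and -0.07. None of these members was called in WT-aa.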

How the results depend on the processing

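No depletion effect of a called member changed its direction under any alternative, and the members called lower at 30 min within Mot1-aa turned in 2 cases with scaling on the external control spots, RKI1 to 6e-04 and RPE1 to 0.15 (-0.41 and -0.26 before). In the design with no replicate block, which drops the dye and culture term that pairs the cultures by number, the counts of called members were 0 for the depletion effect at 20 min (10 with it), 7 at 30 min (15), 1 for the strains at 0 min (2), 0 and 13 within Mot1-aa at 10 and 20 min (2 and 21), 0 and 0 within WT-aa at 10 and 30 min (2 and 1), and 0 of the 14 pairs (1). External control spots gave 0 for the depletion effects at 20 and 30 min, the strains at 0 min, Mot1-aa at 10 min, WT-aa at 10 and 30 min, and the pairs, and the split over all genes at 30 min moved from 721 higher and 399 lower to 4 and 0. Median centring gave 5 at 20 min and 0 for WT-aa at 10 and 30 min, and the authors' values gave 5 at 20 min. Array weights gave 0 for Mot1-aa at 10 min and 4, 3 and 0 for WT-aa at 10, 20 and 30 min. The strain-by-culture random block (consensus correlation -0.0668) gave 1 for WT-aa at 10 min. Normexp with no offset, chosen after seeing the data, gave 5 at 20 min, and 1 and 0 for WT-aa at 10 and 30 min. With 1 array left out at a time the counts ran from 0 to 0, 0 to 17 and 9 to 24 for the depletion effects at 10, 20 and 30 min, 1 to 6 for the strains at 0 min, 2 to 8, 11 to 27 and 18 to 31 within Mot1-aa, 0 to 4, 0 to 1 and 0 to 1 within WT-aa, and 0 to 3 for the pairs; fewer arrays leave a group with 1, assumed to vary like the others. The cause of the other shifts was not tested. Of the 15 members called at 30 min, 8 passed with any 1 array left out and 15 were lost with the external spots. Filtering dim genes left 5014 genes and 41 members, and moved no count by more than 1.5 times. ENO1, PYK2, ADH5 and TKL2 were called at 30 min with array weights, and PYK2 with no background subtraction. The motif count was not run.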
